A study of Mus musculus with 9 samples.

Results

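Transcripts of 10 genes of iron handling and metal binding were followed in the aging mouse kidney: the ferritin subunits Fth1 and Ftl1, the hepcidin gene Hamp, the iron exporter Slc40a1, the transferrin receptor Tfrc, transferrin (Trf), ceruloplasmin (Cp), the iron importer Slc11a2, and the metallothioneins Mt1 and Mt2. The genes were chosen by their function, with earlier results of these data known. All 10 were measured among 19938 genes, each by the only probe set that carried its symbol alone. Whole kidneys of female wild type mice (strain background mixed FVB/C57BL6) were compared at 2 ages, with 4 arrays at 14 weeks and 5 at 96 weeks. The methods describe perfusion with cold saline and snap freezing, and each array is labelled as a separate replicate of its age. The methods count 5 animals at each age, and 4 arrays at 14 weeks were analysed here. The values are log2 expression on Affymetrix Mouse Gene ST arrays, so that a difference of 1 is a doubling. Probe sets differ in brightness, so levels of different genes were set side by side only as percentiles of all genes.

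Cells take up iron bound to transferrin through the transferrin receptor, move it across membranes through the divalent metal transporter Slc11a2, store it in ferritin and release it through ferroportin (Slc40a1). Ceruloplasmin, a copper oxidase, oxidises the released iron so that transferrin can bind it, and hepcidin removes ferroportin from the membrane. In the kidney, tubules reclaim filtered iron and transferrin. Metallothioneins are small cysteine-rich proteins that bind zinc, copper and cadmium and are induced by metals, glucocorticoids and stress.

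All pairs of arrays correlated between 0.982 and 0.997. Precision was limited by the number of arrays. The proximal tubule markers stood at a mean level of 11.3 to 11.4 at 14 weeks and 11.2 to 11.6 at 96 weeks, and none of the 9 passed the limma test (1 at an unadjusted p under 0.05). Across all genes, limma found 860 higher and 479 lower at 96 weeks with an adjusted p under 0.05. After the values of all genes were quantile normalized once more, it found 484 higher and 505 lower. These are bulk measurements of a whole organ, so that fewer cells of a type and less RNA per cell cannot be told apart.

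In limma 5 of the 10 genes were higher at 96 weeks and 0 were lower with an adjusted p under 0.05 (0 were lower at an unadjusted p under 0.05 as well). The rises were in transferrin, ceruloplasmin, the ferritin light chain, ferroportin and the divalent metal transporter. Without replicate 1, 2 or 4 at 14 weeks, or 2 or 5 at 96 weeks, 3 of the 10 passed, Trf, Cp and Ftl1. Over all genes 4.31% were higher and 2.4% were lower by the same test. Both transferrin and ceruloplasmin also passed a 1.5-fold change in the upward direction with an unadjusted p under 0.05, which 1.28% of all genes did. In 4 of the 10 genes every old kidney lay above every young one, against 7.49% of all genes. The median log2 fold change was 0.36 over the 10 genes and -0.03 over all genes.

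**Figure D1:**
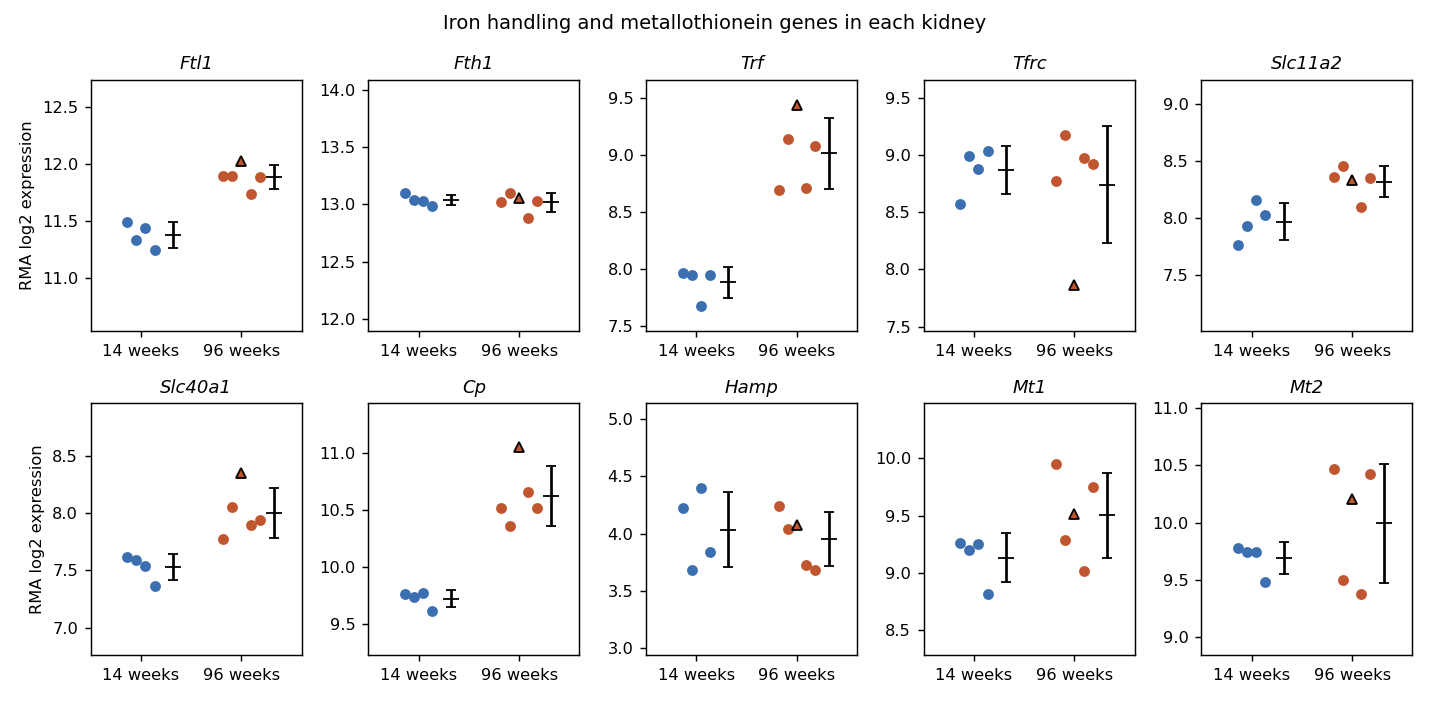
RMA log2 expression of each of the 10 genes in the 4 kidneys at 14 weeks and the 5 kidneys at 96 weeks, with points for kidneys and a bar for the mean with 1 SD. The 2 ages are separate for Ftl1, Trf, Cp and Slc40a1 and overlap for the other 6 genes.

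Ferritin stores iron in a shell of light and heavy chains, and of their transcripts that of the light chain passed the test. Ftl1, the light chain, was at 11.49, 11.34, 11.44 and 11.24 in replicates 1 to 4 at 14 weeks and at 11.90, 11.90, 12.03, 11.73 and 11.89 in replicates 1 to 5 at 96 weeks. Each old kidney was above each young one, and on the log2 scale Ftl1 rose by 0.51 (limma, SE 0.071 and adjusted p = 0.0057). Fth1, the heavy chain with the ferroxidase activity, was at 13.10, 13.04, 13.03 and 12.98 at 14 weeks and at 13.02, 13.10, 13.05, 12.88 and 13.03 at 96 weeks. The ages overlapped throughout, and the log2 fold change of Fth1 was -0.02 with a 95% interval of -0.14 to 0.10 (limma, adjusted p = 0.82). For Ftl1 the interval was 0.35 to 0.67. Within each array, the log2 difference Ftl1 minus Fth1 was 0.53 higher at 96 than at 14 weeks (exact permutation p = 0.0079). This is the smallest p that the 126 assignments of the arrays can give. Fth1 changed little, so this difference mostly restates the rise of Ftl1 and is not a separate test of it. Only the change of the difference with age was read, not its level. Over both ages the mean of Fth1 was at the 99.97th percentile of all genes and that of Ftl1 at the 99.24th, near the top of the range of these arrays, where the response of the probe sets was not tested. Ferritin genes have near-identical copies in the genome, and 4 further probe sets that list Ftl1 together with other symbols were left out, so that the probe set used may also read copies.

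Trf, the plasma carrier of iron, had the largest difference of the 10 genes. It was at 7.96, 7.95, 7.68 and 7.95 at 14 weeks and at 8.69, 9.14, 9.44, 8.71 and 9.08 at 96 weeks. The lowest old kidney lay 0.73 above the highest young one, and the rise was 1.13 on the log2 scale or 2.18-fold (limma, SE 0.15 and adjusted p = 0.0047). The SD was 0.31 at 96 weeks and 0.14 at 14 weeks. Transferrin is made in quantity by hepatocytes, and 1 of 7 measured hepatocyte markers was higher by the limma test (Fgb, of fibrinogen, by 0.70). Another, Cyp2e1, had a log2 fold change of -0.85 with an unadjusted p under 0.05 (limma, adjusted p = 0.057). The mean level of these markers was 6.97 to 7.12 at 14 weeks and 6.85 to 7.23 at 96 weeks.

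Tfrc, which carries iron-loaded transferrin into the cell, was at 8.57, 8.99, 8.88 and 9.03 at 14 weeks and at 8.77, 9.18, 7.86, 8.97 and 8.92 at 96 weeks. At 96 weeks 1 kidney, replicate 3, stood below all the others, and the other 4 lay between 8.77 and 9.18 with a mean of 8.96 ± 0.17 (SD, n = 4). The log2 fold change was -0.13 with a 95% interval of -0.64 to 0.39 (limma, adjusted p = 0.73), and 0.09 without that kidney (limma, adjusted p = 0.61). Slc11a2, the divalent metal transporter DMT1, which moves iron out of endosomes and across apical membranes, was at 7.77, 7.93, 8.16 and 8.02 at 14 weeks and at 8.36, 8.46, 8.33, 8.09 and 8.35 at 96 weeks. Only replicate 4 at 96 weeks fell within the young range, and the rise was 0.35 (limma, SE 0.091 and adjusted p = 0.048). Slc11a2 lost its call in 11 of 19 other settings, with adjusted p up to 0.14 from limma, among them leaving out any of replicates 1, 2 and 4 at 14 weeks or any of replicates 1, 2, 3 and 5 at 96 weeks.

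Cp and Slc40a1 act together in the release of iron from cells, and both were higher in all old kidneys than in all young ones. Cp was at 9.76, 9.74, 9.77 and 9.61 at 14 weeks and at 10.52, 10.36, 11.05, 10.65 and 10.51 at 96 weeks. The young kidneys differed little (SD 0.074) and the lowest old kidney lay 0.58 above them. The limma fit gave a 95% interval of 0.63 to 1.16 for the log2 fold change of Cp, a 1.86-fold rise (adjusted p = 0.0052). Slc40a1 was at 7.62, 7.59, 7.54 and 7.37 at 14 weeks and at 7.77, 8.05, 8.36, 7.90 and 7.95 at 96 weeks. It rose by 0.48 or 1.39-fold (limma, SE 0.11 and adjusted p = 0.031). Slc40a1 lost its call in 10 of 19 other settings, with adjusted p up to 0.091 in limma and 0.095 in the methods' t-test, among them leaving out any 1 of the 4 young kidneys or replicate 2 or 5 at 96 weeks.

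Hamp encodes hepcidin, the hormone that closes ferroportin, and was the only one of the 10 genes whose mean lay below the 30th percentile of all genes. It was at 4.22, 3.69, 4.40 and 3.83 at 14 weeks and at 4.24, 4.04, 4.07, 3.73 and 3.68 at 96 weeks. The ages overlapped, and the log2 fold change was -0.08 with a 95% interval of -0.44 to 0.28 (limma, adjusted p = 0.75). No signal over background was given with the values, so that a dim level of Hamp could not be told from background.

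**Figure D2:**
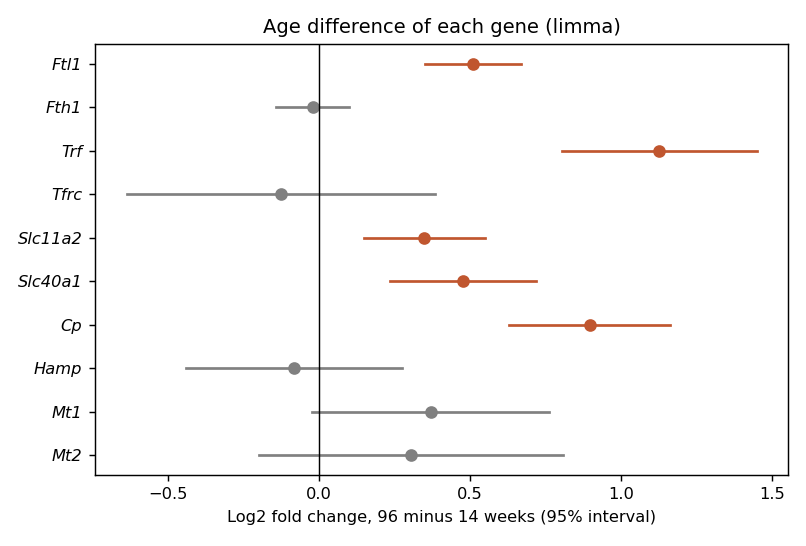
Log2 fold change of each of the 10 genes, 96 minus 14 weeks, with its 95% interval from limma. The intervals of Trf, Cp, Ftl1, Slc40a1 and Slc11a2 lie above 0, and those of Mt1, Mt2, Fth1, Hamp and Tfrc hold 0.

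The metallothionein genes Mt1 and Mt2 lie side by side on chromosome 8 of the mouse, and their gene records start 6265 bases apart. Metal-responsive transcription factor Mtf1 acts on such genes through metal response elements, whose core is written TGCACNC or TGCGCNC. The promoters of both genes are shown because the transcripts moved together. Each is the RefSeq window of build GRCm38.p6 from 250 bases before to 50 bases after a transcription start, 5′ to 3′ on the + strand, with matches to the core on either strand in capitals. The Mt1 window, chr8:94178839-94179138, surrounds an annotated start inside the gene record, and the Mt2 window is chr8:94172368-94172667.
Mt1: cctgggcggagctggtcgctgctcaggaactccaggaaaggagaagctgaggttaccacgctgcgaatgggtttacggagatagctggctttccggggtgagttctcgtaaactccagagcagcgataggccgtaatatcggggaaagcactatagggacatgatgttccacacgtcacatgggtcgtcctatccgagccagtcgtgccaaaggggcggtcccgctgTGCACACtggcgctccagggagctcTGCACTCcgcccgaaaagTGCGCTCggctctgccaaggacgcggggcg
Mt2: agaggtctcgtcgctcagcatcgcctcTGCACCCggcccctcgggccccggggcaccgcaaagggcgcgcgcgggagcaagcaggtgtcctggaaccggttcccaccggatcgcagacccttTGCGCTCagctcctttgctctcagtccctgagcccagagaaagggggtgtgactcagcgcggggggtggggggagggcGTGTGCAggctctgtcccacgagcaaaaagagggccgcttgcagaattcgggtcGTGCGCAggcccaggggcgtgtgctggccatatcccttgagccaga
The Mt1 window held 3 matches, all on the + strand, and the Mt2 window held 4, with 2 on each strand. Of 32817 promoter windows of this length, 25.7% held at least 1 match and 1.97% held 3 or more.

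Of the 10 genes 7 had a promoter window, and in Fth1, Ftl1, Hamp and Cp no match to the metal response core was found in these letters. In 1 window of Tfrc, 2 matches on opposite strands overlapped each other. The antioxidant response core, searched as TGACNNNGC on both strands, was in 12.4% of all windows and in that of Mt2 among the members. The hypoxia response core ACGTG, also searched on both strands, was in 19.6% of all windows and in those of Mt1 and Tfrc. A match is a description of the letters and was not tested for binding.

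Neither metallothionein passed the test, while the values spread widely among old kidneys. Mt1 was at 9.26, 9.20, 9.25 and 8.81 at 14 weeks and at 9.95, 9.29, 9.51, 9.01 and 9.75 at 96 weeks. Mt2 was at 9.78, 9.75, 9.75 and 9.48 at 14 weeks and at 10.47, 9.50, 10.21, 9.37 and 10.42 at 96 weeks. For both genes replicates 1, 3 and 5 at 96 weeks lay above all young kidneys, while replicates 2 and 4 did not for Mt2, and replicate 4 did not for Mt1. The log2 fold change was 0.37 for Mt1 with a 95% interval of -0.02 to 0.76 (limma, adjusted p = 0.20) and 0.30 for Mt2 with an interval of -0.20 to 0.81 (limma, adjusted p = 0.38). These intervals include a rise as large as that of Ftl1. The SD of Mt2 was 0.52 at 96 weeks against 0.14 at 14 weeks, and that of Mt1 was 0.37 against 0.21.

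The order of the kidneys was much the same for both metallothioneins. Over the 9 arrays Pearson's r of Mt1 with Mt2 was 0.93 (exact permutation p = 3.9e-04, adjusted 0.0012 over 3 pairs of genes) and Spearman's rho was 0.87 (exact permutation p = 0.0045, adjusted 0.014). Without replicates 1 and 5 at 96 weeks, the kidneys farthest from the median of Mt1, r was 0.79, and with each age centred on its mean it was 0.93. The pair was chosen with the values known. For the ferritin chains Fth1 and Ftl1 r was 0.11 (exact permutation p = 0.81, adjusted 0.92) and rho was 0.28 (exact permutation p = 0.47, adjusted 0.71), but r was 0.78 with each age centred on its mean. Without replicates 2 and 4 at 96 weeks, r of the ferritin chains was 0.21. For the importers Tfrc and Slc11a2 r was -0.04 (exact permutation p = 0.92, adjusted 0.92) and rho was 0.08 (exact permutation p = 0.84, adjusted 0.84), and without replicate 1 at 14 weeks and replicate 3 at 96 weeks r was 0.0067.

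**Figure D3:**
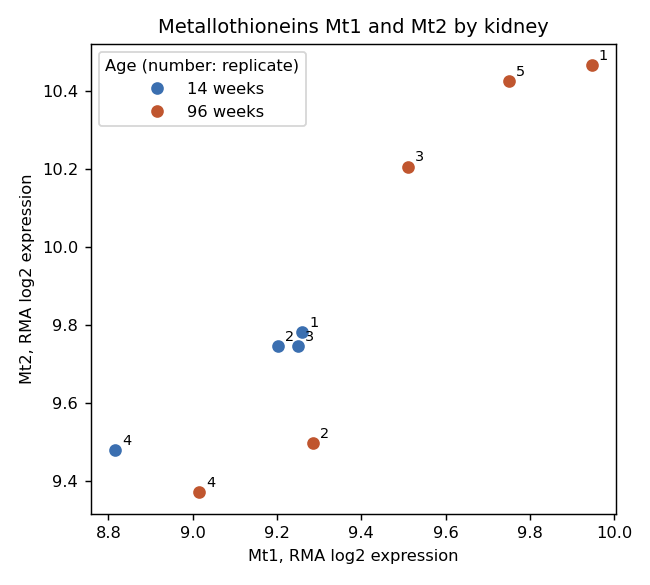
Mt2 against Mt1, both as RMA log2 expression, in the 9 kidneys, with the replicate number beside each point. Replicates 1, 3 and 5 at 96 weeks lie at the upper right, and replicates 2 and 4 at 96 weeks lie among or near the young kidneys.

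Glucocorticoid induced genes were read beside the metallothioneins because these hormones induce both groups. Of the 11 measured, 2 fell, Hif3a by 0.40 and Klf9 by 0.44 on the log2 scale, and 0 rose by the limma test. Of all genes 2.4% fell and 4.31% rose by this test. At an unadjusted p under 0.05 in limma there were 7, among them Lcn2 with a rise of 1.58, against 28.5% of all genes. The list median was -0.34, and 2 of the 11 had a log2 fold change above 0. The mean level of the 11 genes was 7.42 to 7.77 at 14 weeks and 7.20 to 7.64 at 96 weeks. The part of these hormones in the metallothionein values was not tested. Genes most like Mt1 over the 9 arrays were Ggh (r = 0.93), which cleaves folate polyglutamates, Rdh16f2 (0.93), a retinol dehydrogenase family gene, Chmp3 (0.91), of the endosomal sorting machinery, and Atp6v1h (0.91), a subunit of the vacuolar proton pump. With each age centred on its mean these r values were 0.90, 0.90, 0.89 and 0.87. They are the 4 highest of all genes outside the 10 and are given as a description.

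Replicate 3 at 96 weeks held the highest value of the 5 old kidneys for Ftl1, Slc40a1, Trf and Cp and the lowest for Tfrc. For Cp it was at 11.05 against 10.36 to 10.65 in the other 4, and for Slc40a1 at 8.36 against 7.77 to 8.05. For the metallothioneins it was the third of the 5. With that kidney left out, log2 fold changes were 0.48 for Ftl1, 0.39 for Slc40a1, 1.02 for Trf and 0.79 for Cp, with adjusted p of 0.0096, 0.025, 0.0051 and 0.0016 from limma. Without replicates 3 and 4 together, a setting chosen after the data were seen, they were 0.52, 0.40, 1.09 and 0.74, and all 4 calls held.

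**Figure D4:**
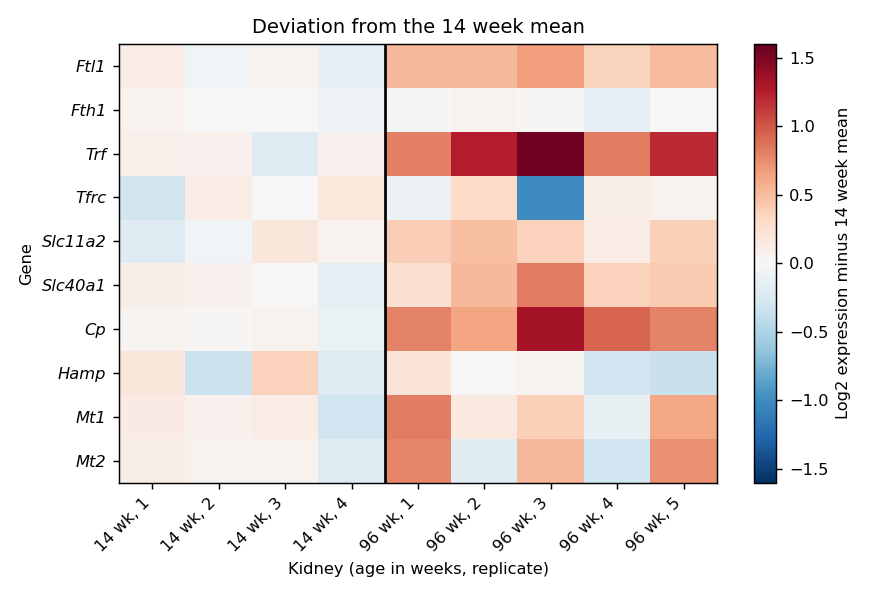
Log2 expression of each of the 10 genes in each of the 9 kidneys minus the mean of that gene at 14 weeks, as a colour scale. Replicate 3 at 96 weeks has the highest Trf, Cp, Slc40a1 and Ftl1 and the lowest Tfrc of the old kidneys, and Mt1 and Mt2 share the low values of replicates 2 and 4.

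Markers of other cells and of injury also differed among the old kidneys. The mean level of 9 measured tubular injury genes was 6.77 to 6.87 at 14 weeks and 7.11 to 8.48 at 96 weeks, with replicate 3 at 8.48 and replicate 4 at 7.57. The mean level of 14 macrophage and dendritic cell markers was 6.57 to 6.60 at 14 weeks and 6.88 to 8.02 at 96 weeks, with replicate 3 at 7.87 and replicate 4 at 8.02. Of these 14 markers 3 rose, Lyz2, Csf1r and Tyrobp, and 0 fell by the limma test, against 4.31% and 2.4% of all genes. At an unadjusted p under 0.05 in limma there were 11, against 28.5% of all genes. All 14 had a log2 fold change above 0, with a list median of 0.68. Macrophages recycle iron and express ferroportin, ferritin and ceruloplasmin, and the part of these cells in the rises was not tested. Of 12 erythroid and blood markers 4 were measured, with a mean level of 5.88 to 6.12 at 14 weeks and 5.62 to 5.86 at 96 weeks, and 0 passed (2 at an unadjusted p under 0.05).

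Genes most like Tfrc over the 9 arrays were Traf3ip2 (r = 0.97), an adaptor of interleukin 17 receptors, Tdrd5 (0.95), Rtn4ip1 (0.95) and Acp1 (0.95), a small tyrosine phosphatase. None of these 4 passed the limma test for age, and their log2 fold changes lay between -0.05 and -0.01. They are the 4 highest of all genes outside the 10 and are given as a description. Tfrc stood apart in replicate 3 at 96 weeks, and these r values were not taken without that kidney. Those most like Cp were Rpl10 (0.99), a ribosomal protein, Ppp1r14b (0.99), an inhibitor of protein phosphatase, Igha (0.98), the constant region of immunoglobulin A, and Tagln2 (0.98), an actin-binding protein. Of these, Ppp1r14b rose by 0.93, Igha by 3.06 and Tagln2 by 0.44 on the log2 scale (limma, adjusted p = 0.0029, 0.0020 and 0.025). With each age centred on its mean, r with Cp was 0.93 for Rpl10, 0.89 for Ppp1r14b, 0.83 for Igha and 0.96 for Tagln2. The age difference and replicate 3 are shared by these points.

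The rest of metal handling was read from 6 gene lists with 97 measured genes outside the 10. In limma 5 of these 97 genes rose and 0 fell with an adjusted p under 0.05, which is 5.15% against 4.31% of all genes in the upward direction and so near the background. At an unadjusted p under 0.05 in either direction there were 34 (35.1%), against 28.5% of all genes, and the median log2 fold change was 0.05. Without replicate 1, 3 or 4 at 14 weeks 3, 2 and 2 of them passed. The genes that rose were Atox1, Ccs, Pcbp1, Lrp1 and Flvcr1.

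Copper handling held 2 of the rises among 11 genes, and 4.31% of all genes were higher by the same test. Atox1, the chaperone that brings copper to the copper pumps which load ceruloplasmin, was at 9.72, 9.63, 9.62 and 9.45 at 14 weeks and at 10.22, 10.05, 10.26, 10.02 and 10.12 at 96 weeks. The ages did not overlap, and Atox1 rose by 0.53 (limma, SE 0.071 and adjusted p = 0.0052). Ccs, the chaperone that loads copper into superoxide dismutase, was at 8.03, 7.96, 8.07 and 7.75 at 14 weeks and at 8.79, 8.62, 8.35, 8.37 and 8.61 at 96 weeks. It was higher in all old kidneys and rose by 0.59 (limma, SE 0.10 and adjusted p = 0.012). Under the methods' t-test Ccs did not pass (adjusted p = 0.057), and it passed in the other 18 settings. The median of the copper list was 0.05. In limma 4 of the 11 had an unadjusted p under 0.05 in either direction, against 28.5% of all genes.

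Among 20 genes of haem uptake, breakdown and synthesis 2 rose, with a list median of 0.16 and 10 genes at an unadjusted p under 0.05, which 28.5% of all genes had. Lrp1, a receptor for haem bound to haemopexin among many other ligands, was at 7.27, 7.50, 7.40 and 7.38 at 14 weeks and at 7.56, 7.77, 7.78, 7.69 and 7.69 at 96 weeks. The rise was 0.31 (limma, SE 0.063 and adjusted p = 0.020). Flvcr1, known as a haem exporter and choline transporter, rose by 0.42 (limma, SE 0.11 and adjusted p = 0.048) and lost this call in 14 of 19 other settings, among them leaving out any 1 kidney. Hmox1, the inducible haem oxygenase, named after its values were seen, did not overlap between the ages, with a log2 fold change of 0.71 (limma, SE 0.20 and adjusted p = 0.059). It passed in 4 of 19 other settings, with array weights, with the filter on dim genes and without replicate 1 or 2 at 96 weeks (limma, adjusted p = 0.038 to 0.046). Without replicates 3 and 4 at 96 weeks together it was at 0.49 (limma, adjusted p = 0.15).

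In iron storage, sensing and intracellular use 1 of 15 genes rose, Pcbp1, a chaperone that brings iron to ferritin. It was at 8.47, 8.53, 8.35 and 8.31 at 14 weeks and at 8.68, 8.68, 8.66, 8.75 and 8.70 at 96 weeks, a rise of 0.28 (limma, SE 0.056 and adjusted p = 0.020). Lrp1 lost its call in 7 of 19 other settings, among them leaving out replicate 1, 3 or 4 at 14 weeks, and Pcbp1 in 6, among them leaving out replicate 3 or 4 at 14 weeks. Ncoa4, the receptor that takes ferritin to the lysosome, also named after its values were seen, had a log2 fold change of -0.22 (limma, adjusted p = 0.093). The list median was 0.10. In limma 7 of the 15 had an unadjusted p under 0.05 in either direction, against 28.5% of all genes.

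None of 15 genes of iron uptake and reduction passed by limma (2 at an unadjusted p under 0.05, list median -0.01), and the smallest p belonged to Lcn2 (1.58, adjusted p = 0.079), which binds iron in siderophores, and Scara5 (-0.21, adjusted p = 0.083), a ferritin receptor. In every old kidney Lcn2 was higher, and Scara5 lower, than in every young one. Without replicate 3 at 96 weeks, Lcn2 had a log2 fold change of 1.08 and passed (limma, adjusted p = 0.0091). Of 16 genes of hepcidin control 0 passed by limma (5 at an unadjusted p under 0.05, list median 0.06), with Id1, a target of bone morphogenetic proteins, at 0.34 (adjusted p = 0.091) and Erfe, the erythroid hormone that lowers hepcidin, at -0.21 (adjusted p = 0.11). Of 20 genes of zinc handling and metallothionein regulation 0 passed by limma (6 at an unadjusted p under 0.05, list median 0.02), with the zinc transporters Slc39a7 at 0.26 (adjusted p = 0.052) and Slc30a1 at 0.19 (adjusted p = 0.056). The further metallothioneins Mt3 and Mt4, outside the rule for named genes, had log2 fold changes of -0.25 and -0.21 (limma, adjusted p = 0.098 and 0.12).

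**Figure D5:**
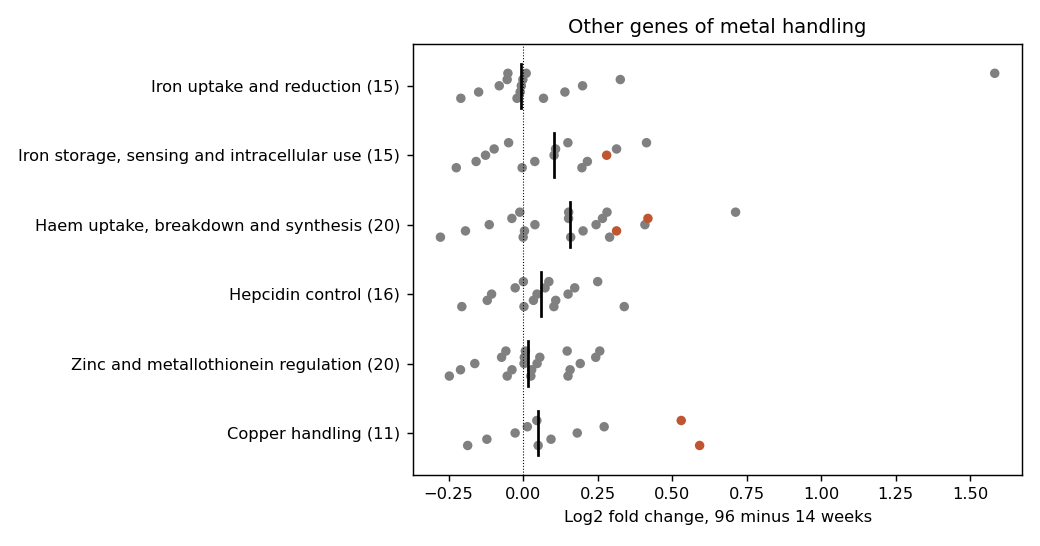
Log2 fold change, 96 minus 14 weeks, of the 97 other genes in 6 lists, with the number measured in parentheses, a black bar at each list median and orange points for an adjusted p under 0.05 from limma. The 5 genes that passed lie above 0, and the list medians run from -0.01 to 0.16.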

How the data were processed

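Kidney RNA of 4 mice at 14 weeks and 5 at 96 weeks was hybridised to Affymetrix Mouse Gene ST arrays. The authors summarised the scans with RMA and quantile normalization (Affymetrix Power Tools 1.12.0 per the processing notes) and deposited the log2 expression of 35557 probe sets. For the array annotation, a genome build is not given in the sources used here. Of the probe sets 21789 carried 1 symbol, 1621 several and 12147 none. Probe sets with 1 symbol were kept, and the brightest over the 9 arrays stood for a gene. Ages were compared over all 19938 genes with limma 3.58.1 (lmFit, eBayes) in R 4.3.3, with Benjamini-Hochberg adjustment over all genes and no filter on dim genes. Correlations of gene pairs were given exact two-sided permutation p-values in Python 3.11.15, with scipy 1.17.1 for ranks and Benjamini-Hochberg adjustment. Ftl1 minus Fth1 was compared between ages by exact two-sided permutation in R 4.3.3. The limma step was tested on simulated data before use.

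The genes and lists were chosen with earlier results of these data known. The rule for named genes took the 10 members, the genes of each pathway list past an adjusted p of 0.05 (or, if none passed, the 2 with the smallest p), and the 4 genes most correlated with Mt1, Tfrc and Cp. Of 100 listed pathway genes 97 had a probe set of their own. Other settings covered the methods' t-test on the same values, array weights, a trended robust prior, a filter at the 30th percentile, further scalings, the mean of all probe sets of a gene, a block on the replicate number, and the omission of 1 array at a time. Nothing states that the replicates share a litter or a day, and p-values for age set the difference against the spread between these samples. RefSeq promoter windows of GRCm38.p6 were searched for motifs on both strands.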

Additional observations from a re-analysis of the deposited data

Results flagged for a closer look

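Of 46 groups of 4 or 5 kidneys tested for a value far from the rest, 6 held one, and chance gives about 1 in 20. At 14 weeks, Trf in replicate 3 was 7.68, while the other 3 kidneys lay between 7.95 and 7.96. Replicate 4 at 14 weeks was low for both metallothioneins, with Mt1 at 8.81 against 9.20 to 9.26 and Mt2 at 9.48 against 9.75 to 9.78. At 96 weeks, Lcn2 in replicate 3 was 9.68 against 6.90 to 7.52, Erfe in replicate 2 was 5.60 against 5.73 to 5.78, and Slc39a7 in replicate 5 was 7.56 against 7.65 to 7.68.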

How the results depend on the processing

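Ftl1, Trf and Cp kept their call in all 19 alternatives, with log2 fold changes of 0.46 to 0.55, 1.02 to 1.21 and 0.74 to 0.96 (highest adjusted p 0.033, 0.042 and 0.039). Mt1 (0.26 to 0.53) and Mt2 (0.19 to 0.46) passed in none. Of the 10 genes 3 passed instead of 5 under the methods' t-test, repeated quantile normalization, the replicate block and cyclic loess, and 3 to 5 when 1 array was left out. The 3 were Ftl1, Trf and Cp. Trf and Cp passed the 1.5-fold rule throughout. Of the 97 pathway genes 5 passed, but 2 under the methods' t-test, 10 with array weights, 8 with the trended robust prior, 11 with the filter, 3 after repeated quantile normalization, 2 with the replicate block, 3 with cyclic loess, 9 without replicates 3 and 4 at 96 weeks together, and 2 to 6 when 1 array was left out. Cyclic loess and leaving out replicates 3 and 4 were chosen after seeing the data. Of all genes 1339 passed, but 367 under the methods' t-test (273 higher and 94 lower), 989 after repeated quantile normalization (484 higher and 505 lower), 368 with the replicate block (279 higher and 89 lower), and 528 to 1135 when 1 array was left out. Same-numbered arrays of the 2 ages had correlations of deviations of 0.076, 0.021, -0.037 and 0.012. Of 4 young arrays 1 was most like the old array of its number. No pairing by number was seen, but 4 pairs are too few to show that there was none. Differences near 0 changed sign. Hamp was 0.0016 after repeated quantile normalization and -0.20 to 0.04 when 1 array was left out, Tfrc was -0.23 to 0.094 and Fth1 -0.041 to 0.014 when 1 array was left out, and without replicates 3 and 4 Tfrc was 0.090 and Fth1 0.013. Hamp was below the filter and has no value there. For Fth1 with Ftl1, r was -0.14 after repeated quantile normalization and -0.027 to 0.35 when 1 array was left out. Centred on age, it was 0.78 (adjusted p = 0.016 by permutation). That permutation also moved centred values between the ages, so its p is only approximate. For Tfrc with Slc11a2, r was 0.16 centred on age and -0.27 to 0.49 when 1 array was left out, and for Mt1 with Mt2 0.90 to 0.96. The cause of these changes was not tested. Signal over background was not given, which limits dim genes such as Hamp.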
